A study of Mus musculus with 9 samples.

Results

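The miR-181 family is a group of miRNAs made from the hairpins mir-181a, mir-181b, mir-181c and mir-181d, and all entries of these hairpins were taken from a table of small RNA in extracellular vesicles (EVs) of mouse bronchoalveolar lavage fluid (BALF). The table lists each miRNA arm, each genomic copy and each isomiR (a read start shifted against the annotated mature miRNA) as an entry of its own, and 27 of its 1308 entries belong to the family. They come from 6 hairpins, with 9 mature entries and 18 isomiR entries. The 5p arm, cut from the left side of the hairpin, accounts for 21 entries and the 3p arm for 6. C57BL/6J female mice of 8 to 10 weeks breathed filtered air (FA), 1 ppm O3 or 2 ppm O3 for 3 h in a whole body chamber, and lavage followed 21 h later. RNA was sequenced in 9 pools, 3 per exposure. The FA pools held BALF of 4 mice and the O3 pools BALF of 3 mice, so the number of mice per pool and exposure to O3 cannot be told apart. The pools carry no replicate numbers or exposure dates in the labels, and the spread given below is that between pools, which may in part be technical.

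A miRNA guides a silencing complex to messenger RNAs that pair with its seed, the bases 2 to 8 from its 5′ end. Members of the miR-181 family share a seed on the 5p arm, and miR-181a is best known for setting how strongly developing T cells answer their antigen receptor. miR-181b is known to dampen NF-kB signalling in endothelial cells. In BALF, EVs are released by airway macrophages, by the epithelium and, in inflammation, by neutrophils, so that a level in EV RNA is an average over vesicles of several cell types. Fewer vesicles of a cell type and less of a miRNA per vesicle cannot be told apart in such pools.

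The 5p arms are shown because the family is defined by them and because their likeness bears on how reads can be assigned. The seed is in capitals, and the sequences are those of RefSeq for GRCm38.p6, where all 6 hairpins of the table had a mature sequence.
miR-181a-5p: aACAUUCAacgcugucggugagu
miR-181b-5p: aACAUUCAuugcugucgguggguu
miR-181c-5p: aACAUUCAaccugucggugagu
miR-181d-5p: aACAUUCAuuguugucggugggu

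The seed ACAUUCA was found in 4 of the 1679 mature miRNAs of that table, which are these 4. Positions are counted from 1 at the 5′ end. Against miR-181a-5p, miR-181b-5p carried the substitutions A9U, C10U and A21G and was identical at 20 of 23 aligned bases. miR-181c-5p differed from miR-181a-5p by 1 missing base. The nearest pair outside miR-181a was miR-181b-5p and miR-181d-5p, which differed by C12U alone in 23 aligned bases. The substitutions lie outside the seed.

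The 3p arms do not share that seed, and are shown because the table lists some of them in few pools.
miR-181a-1-3p: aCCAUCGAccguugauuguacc
miR-181a-2-3p: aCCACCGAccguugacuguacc
miR-181b-1-3p: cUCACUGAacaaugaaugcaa
miR-181c-3p: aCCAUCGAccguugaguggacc

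miR-181a-1-3p and miR-181c-3p have the seed CCAUCGA, which was in 2 of the 1679 mature miRNAs, and the seed of miR-181a-2-3p, CCACCGA, was in 1.

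The hairpins lie in pairs of neighbours in the mm9 build, to which the reads were aligned. Mir181a-1 is at chr1:139863032-139863118 on the plus strand, and Mir181b-1 at chr1:139863216-139863295 follows 97 bases further on. No annotated gene overlaps them. Mir181a-2 at chr2:38708255-38708330 and Mir181b-2 at chr2:38709350-38709438 are 1019 bases apart. Both are intronic, on the plus strand within Nr6a1, a gene of the minus strand. Mir181d at chr8:86702615-86702686 and Mir181c at chr8:86702762-86702867 are 75 bases apart on the minus strand, outside annotated genes. The hairpins of miR-23a, miR-27a and miR-24-2 start 29549 bases away from Mir181c, on the plus strand.

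Values are in RPMMM, in which the reads of a pool that map to miRNAs are scaled to a fixed total. The steps between low values corresponded to between 535524 and 773282 miRNA reads in the FA pools, between 555096 and 860956 in the 1 ppm O3 pools and between 281533 and 300922 in the 2 ppm O3 pools. No pool listed a value above 0 below about 10 reads, a start that the choice of the read step in part set. The lowest value above 0 was 13.6 to 18.9 RPMMM in the FA pools and 11.8 to 18.9 RPMMM in the 1 ppm O3 pools. In the 2 ppm O3 pools it was 34.3 to 37.3 RPMMM. A family entry below about 37 RPMMM could thus be listed at 0 in a 2 ppm O3 pool and above 0 elsewhere. Shares of the miRNA total also moved with exposure. miR-2137 held between 0.0784% and 0.641% of the total in the FA pools, between 3.23% and 5.40% in the 1 ppm O3 pools and between 18.7% and 20.3% in the 2 ppm O3 pools. A further 8 hairpins without a match in RefSeq held between 0.308% and 0.460% in the FA pools, between 2.28% and 5.57% in the 1 ppm O3 pools and between 22.9% and 27.3% in the 2 ppm O3 pools. RPMMM values of the remaining miRNAs share what is left of a fixed total, and the results are therefore given under other scalings as well.

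In the EV pools the family consisted almost wholly of miR-181a-5p and miR-181b-5p, and on the deposited scale both were lower after 2 ppm O3, while no change of either passed the test after 1 ppm O3. miR-181d-5p was listed at 0 in all 2 ppm O3 pools, and miR-181c-5p showed no order by exposure. In 2 ppm O3 versus FA the log2 fold change of miR-181a-5p lay close to the median of all entries, and that of miR-181b-5p lay below it. A scaling moves nearly all entries of a pool alike, so these distances were bound to be similar under the 4 scalings. They were not tested.

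miR-181a-5p, the most abundant member, is encoded by Mir181a-1 and Mir181a-2, which the table lists apart. The entry of the Mir181a-1 copy stood at 2146, 1876 and 1617 RPMMM in the FA pools, at 1984, 1549 and 1786 RPMMM in the 1 ppm O3 pools and at 979, 885 and 1129.5 RPMMM in the 2 ppm O3 pools. The FA and 1 ppm O3 pools overlapped, and each 2 ppm O3 pool lay below all of them. Summed over both copies, miR-181a-5p averaged 3712 ± 532 RPMMM (SD, n = 3 pools) after FA, 3534 ± 450.4 RPMMM after 1 ppm O3 and 1979.9 ± 244 RPMMM after 2 ppm O3. These sums corresponded to between 506 and 3275 reads per pool. In 2 ppm O3 versus FA the log2 fold change of the Mir181a-1 copy, on the log2(RPMMM + 1) scale, was -0.91 (SE 0.161, limma with Benjamini-Hochberg adjustment over 461 entries, adjusted p = 0.00110). The Mir181a-2 copy had a log2 fold change of -0.90 (SE 0.166, adjusted p = 0.00136 in the same limma fit). Both passed the adjusted p and missed the 2-fold threshold that a differentially expressed (DE) entry must also meet. In 2 ppm versus 1 ppm O3 the log2 fold changes were -0.83 and -0.84 (limma, adjusted p = 0.00274 and 0.00297), and in 1 ppm O3 versus FA they were -0.082 and -0.055 (adjusted p = 0.843 and 0.90) and changed sign under other scalings, to at most 0.057.

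miR-181b-5p comes from Mir181b-1 and Mir181b-2. The entry of the Mir181b-1 copy was listed at 336, 262 and 518 RPMMM in the FA pools, at 397, 180.2 and 419 RPMMM in the 1 ppm O3 pools and at 111, 121 and 174 RPMMM in the 2 ppm O3 pools. The highest 2 ppm O3 pool was just below the lowest 1 ppm O3 pool, and the third FA pool was the highest of all. The entry of the Mir181b-2 copy was at 382, 395 and 593 RPMMM in the FA pools, at 487, 317 and 431 RPMMM in the 1 ppm O3 pools and at 121, 114 and 174 RPMMM in the 2 ppm O3 pools. Here the 2 ppm O3 pools were separated widely from the others. The sum of both copies averaged 829 ± 246 RPMMM (SD, n = 3 pools) after FA, 744 ± 214 RPMMM after 1 ppm O3 and 272 ± 66.0 RPMMM after 2 ppm O3, and corresponded to between 68 and 732 reads per pool.

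Against FA, the log2 fold change of the Mir181b-2 copy after 2 ppm O3 was -1.73 (SE 0.299, limma, adjusted p = 0.000947) and that of the Mir181b-1 copy -1.42 (SE 0.410, limma, adjusted p = 0.0155), and both were DE. In 2 ppm versus 1 ppm O3 they were -1.59 (limma, adjusted p = 0.00222) and -1.22 (limma, adjusted p = 0.0386). The log2 fold changes in 1 ppm O3 versus FA, -0.14 and -0.20, did not pass (limma, adjusted p = 0.848 for each). The call of the Mir181b-1 copy was the less firm. For 2 ppm O3 versus FA its adjusted p was 0.0624 without FA pool 3 and 0.0530 without 2 ppm O3 pool 1. Against 1 ppm O3 its adjusted p was 0.0508 without FA pool 1, 0.121 without 1 ppm O3 pool 1, 0.122 without 1 ppm O3 pool 3, 0.106 without 2 ppm O3 pool 1 and 0.0927 without 2 ppm O3 pool 2. The Mir181b-2 copy passed in both comparisons whichever pool was left out.

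**Figure D1:**
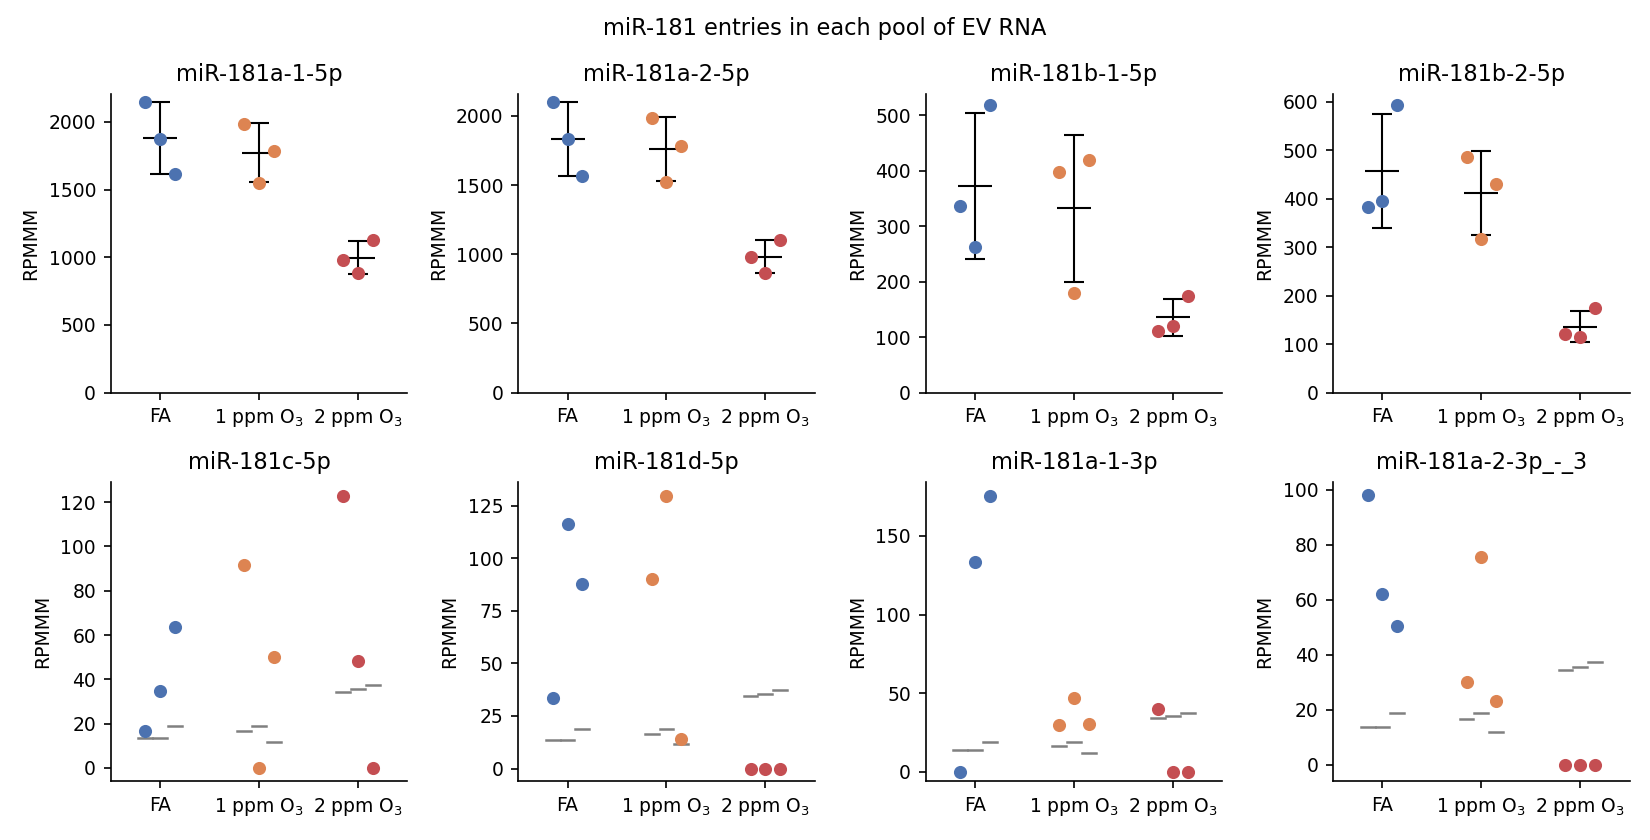
RPMMM (linear axes) of 8 miR-181 entries in each pool after FA, 1 ppm O3 and 2 ppm O3, with the mean and SD of the 3 pools as black bars in the upper panels and, in the lower panels, the lowest value above 0 in each pool as a grey dash. The 2 ppm O3 pools lie below all others for both copies of miR-181a-5p and miR-181b-5p on the deposited scale, and miR-181d-5p is at 0 in them.

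miR-181d-5p, the member encoded next to miR-181c, stood at 33.7, 116 and 87.8 RPMMM in the FA pools and at 89.9, 129.7 and 13.9 RPMMM in the 1 ppm O3 pools, and was listed at 0 in each 2 ppm O3 pool. Its values above 0 corresponded to between 12 and 90.0 reads. It was DE in 2 ppm O3 versus FA (limma, adjusted p = 0.00268) and in 2 ppm versus 1 ppm O3 (limma, adjusted p = 0.00546), and not in 1 ppm O3 versus FA (log2 fold change of -0.34, adjusted p = 0.927). No fold is given against a group listed at 0. It reached the minimum mean of 50 RPMMM for a test only through the FA and 1 ppm O3 pools, with means of 79.3 and 77.8 RPMMM against 0, so that it had to differ to be tested and these p-values are no support for a difference. In FA pool 1 and 1 ppm O3 pool 3 it stood under the lowest value that the 2 ppm O3 pools listed. With all values under 40 RPMMM set to 40, an alternative chosen after the values were seen, the call was lost, with a log2 fold change of -0.88 in 2 ppm O3 versus FA (limma, adjusted p = 0.149) and of -0.94 in 2 ppm versus 1 ppm O3 (adjusted p = 0.143).

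miR-181c-5p was listed at 16.9, 34.9 and 63.5 RPMMM in the FA pools, at 91.5, 0 and 49.9 RPMMM in the 1 ppm O3 pools and at 123, 48.4 and 0 RPMMM in the 2 ppm O3 pools. Its highest value was in a 2 ppm O3 pool, and the exposures overlapped throughout. With a mean of 47.6 RPMMM it stood just under the minimum of 50 RPMMM for a test, whereas miR-181d-5p, with a mean of 52.4 RPMMM, stood just above. Fitted without a minimum, miR-181c-5p had a log2 fold change of -0.92 in 2 ppm O3 versus FA (limma, SE 1.93, adjusted p = 0.801). Its mean RPMMM went the other way, at 38.4 after FA, 47.2 after 1 ppm O3 and 57.1 after 2 ppm O3. The fit took 2 ppm O3 pool 3 as 0, where a level under 37.3 RPMMM could be listed so. The 95% interval, -5.10 to 3.26, holds large changes of either sign. The difference between miR-181c-5p and miR-181d-5p was not tested.

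miR-181a-1-3p, the opposite arm of Mir181a-1, was the remaining entry with a mean above 50 RPMMM, at 50.6. It was listed at 0, 133 and 176 RPMMM in the FA pools, at 29.9, 46.8 and 30.2 RPMMM in the 1 ppm O3 pools and at 39.9, 0 and 0 RPMMM in the 2 ppm O3 pools. The FA pools held its highest values and also a 0, and with means of 103, 35.7 and 13.3 RPMMM after FA, 1 ppm and 2 ppm O3 it reached the minimum only through the FA pools. No comparison passed (limma, adjusted p = 0.258 in 2 ppm O3 versus FA, 0.238 in 2 ppm versus 1 ppm O3 and 0.967 in 1 ppm O3 versus FA). The test of 2 ppm O3 versus FA passed without FA pool 1, where it was at 0 (limma, adjusted p = 0.0337), and with values under 40 RPMMM set to 40 (adjusted p = 0.0440).

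The other 21 entries had a mean under 50 RPMMM and were not tested. They were miR-181c-5p, 2 mature 3p entries and the 18 isomiRs. miR-181b-1-3p was above 0 in FA pool 1 alone, at 14.3 RPMMM, and miR-181c-3p in 1 ppm O3 pool 3 alone, at 30.2 RPMMM. No mature entry of the 3p arm of Mir181a-2 was listed, but an isomiR of it with an offset of -3 stood at 97.9, 62.1 and 50.4 RPMMM in the FA pools, at 29.9, 75.7 and 23.2 RPMMM in the 1 ppm O3 pools and at 0 in all 2 ppm O3 pools. In a fit without a minimum level it passed in 2 ppm O3 versus FA (limma, adjusted p = 0.00188). It also passed in 2 ppm versus 1 ppm O3 (limma, adjusted p = 0.00724), as the only isomiR of the family. The lowest value that the 2 ppm O3 pools listed was 34.3 to 37.3 RPMMM, so a lower level could stand as 0 there. The fit took such levels as 0, and both p-values depend on that choice. The FA values of the isomiR lay above this range, but those of 1 ppm O3 pools 1 and 3 lay under it. Neither p-value is therefore support for a difference, and the isomiR was singled out because it passed. Its values show only that each FA pool listed it above the lowest value listed in any 2 ppm O3 pool. No fit of the isomiR with low values raised to a floor was made.

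IsomiRs of miR-181a-5p with an offset of +1 had the same value under both copies, at 62.2, 54.2 and 74.7 RPMMM in the FA pools, at 0, 30.6 and 53.4 RPMMM in the 1 ppm O3 pools and at 39.9, 0 and 0 RPMMM in the 2 ppm O3 pools. The sources used here do not explain the sign of the offset, but any offset of the 5′ end moves the seed. Over the whole family, isomiRs above 0 in at least 1 pool numbered 12 after FA, 12 after 1 ppm O3 and 2 after 2 ppm O3. Counting only values of 40 RPMMM or more, which each pool could list, these numbers were 3, 3 and 0. Of all 27 entries, 20 were above 0 in some FA pool, 20 in some 1 ppm O3 pool and 8 in some 2 ppm O3 pool, and 12 were above 0 in a single pool of the 9. The loss ran through the whole set of 1308 entries. Of these, 511 to 561 were at 0 in an FA pool, 456 to 591 in a 1 ppm O3 pool and 802 to 839 in a 2 ppm O3 pool. IsomiR values above 0 lay between 13.4 and 97.9 RPMMM, against a lowest listed value of 34.3 to 37.3 RPMMM in the 2 ppm O3 pools, which also had the fewest reads. The part of read depth in these counts was not tested.

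Of the 6 entries tested, 3 were DE in 2 ppm O3 versus FA, and all 3 were lower, while 29.3% of all entries tested were DE and lower. By the adjusted p alone 5 of 6 were lower, against 38.0% of all entries, and in 5 of 6 every 2 ppm O3 pool lay below every FA pool, against 48.2%. In 2 ppm versus 1 ppm O3, a comparison that shares the 2 ppm O3 pools, again 3 of 6 were DE and lower, against 22.3% of all entries. By the adjusted p alone 5 of 6 were lower, against 32.1%, and 5 of 6 did not overlap, against 37.5%. In 1 ppm O3 versus FA, 0 of 6 were DE by limma, with 0 of 6 at an unadjusted p under 0.05, where 13.2% of all entries were DE. On the deposited scale the median log2 fold change of the 6 entries was -0.11 in 1 ppm O3 versus FA, -1.58 in 2 ppm O3 versus FA and -1.40 in 2 ppm versus 1 ppm O3. Over all 461 entries tested the medians were -0.084, -0.83 and -0.69. The 6 entries come from 4 mature sequences, and 2 of them, miR-181d-5p and miR-181a-1-3p, passed the minimum level only through the exposures in which they were high. The counts and medians are therefore a description and support nothing about the family.

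The scaling of the pools moved the values of the family. The median of all entries in 2 ppm O3 versus FA went from -0.83 on the deposited scale to -0.51 when miR-2137 was left out of the total, to -0.091 with median-of-ratios scaling and to 0.045 when miR-2137 and the 8 unmatched hairpins were left out of the total. The Mir181a-1 copy of miR-181a-5p had log2 fold changes of -0.91, -0.60, -0.21 and -0.051 on these scales (limma, adjusted p = 0.00110, 0.0122, 0.277 and 0.832). Less the median of all entries, these values were -0.086, -0.096, -0.12 and -0.096. A scaling moves the copy and the median nearly alike, so these distances do not support one another.

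The Mir181b-2 copy of miR-181b-5p had log2 fold changes of -1.73, -1.42, -1.04 and -0.88 on the same scales in 2 ppm O3 versus FA, all past the adjusted p (limma, adjusted p = 0.000947, 0.00388, 0.0168 and 0.0374). The last of these values is short of the 2-fold threshold, so on that scale the copy was not DE. Less the median of all entries they were -0.91, -0.92, -0.95 and -0.92, alike for the same reason, and the distance was not tested. The Mir181b-1 copy was at -1.42, -1.11, -0.73 and -0.56 and passed on the first pair of scales (limma, adjusted p = 0.0155, 0.0468, 0.163 and 0.289). On the deposited scale its 95% interval, -2.34 to -0.50, held the median of all entries, -0.83. The interval of the Mir181b-2 copy, -2.40 to -1.06, did not. Neither copy had a positive log2 fold change on any of these scales in this comparison. With the copies averaged and each mature miRNA tested once, miR-181a-5p had a log2 fold change of -0.90 (limma, adjusted p = 0.00123) and miR-181b-5p of -1.59 (adjusted p = 0.00268) on the deposited scale.

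Less was kept in 2 ppm versus 1 ppm O3. The Mir181a-1 copy had log2 fold changes of -0.83, -0.58, -0.22 and -0.081 on the 4 scales in the same order (limma, adjusted p = 0.00274, 0.0200, 0.301 and 0.686), and those of the Mir181a-2 copy on the latter pair of scales were -0.23 and -0.092 (adjusted p = 0.294 and 0.662). The Mir181b-2 copy was at -1.59, -1.34, -0.98 and -0.85 (limma, adjusted p = 0.00222, 0.00654, 0.0270 and 0.0563), so that it was no longer DE with median-of-ratios scaling and missed the adjusted p without miR-2137 and the unmatched hairpins. The Mir181b-1 copy was at -1.22, -0.97, -0.61 and -0.48 and passed on the deposited scale alone (limma, adjusted p = 0.0386, 0.0894, 0.255 and 0.398).

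**Figure D2:**
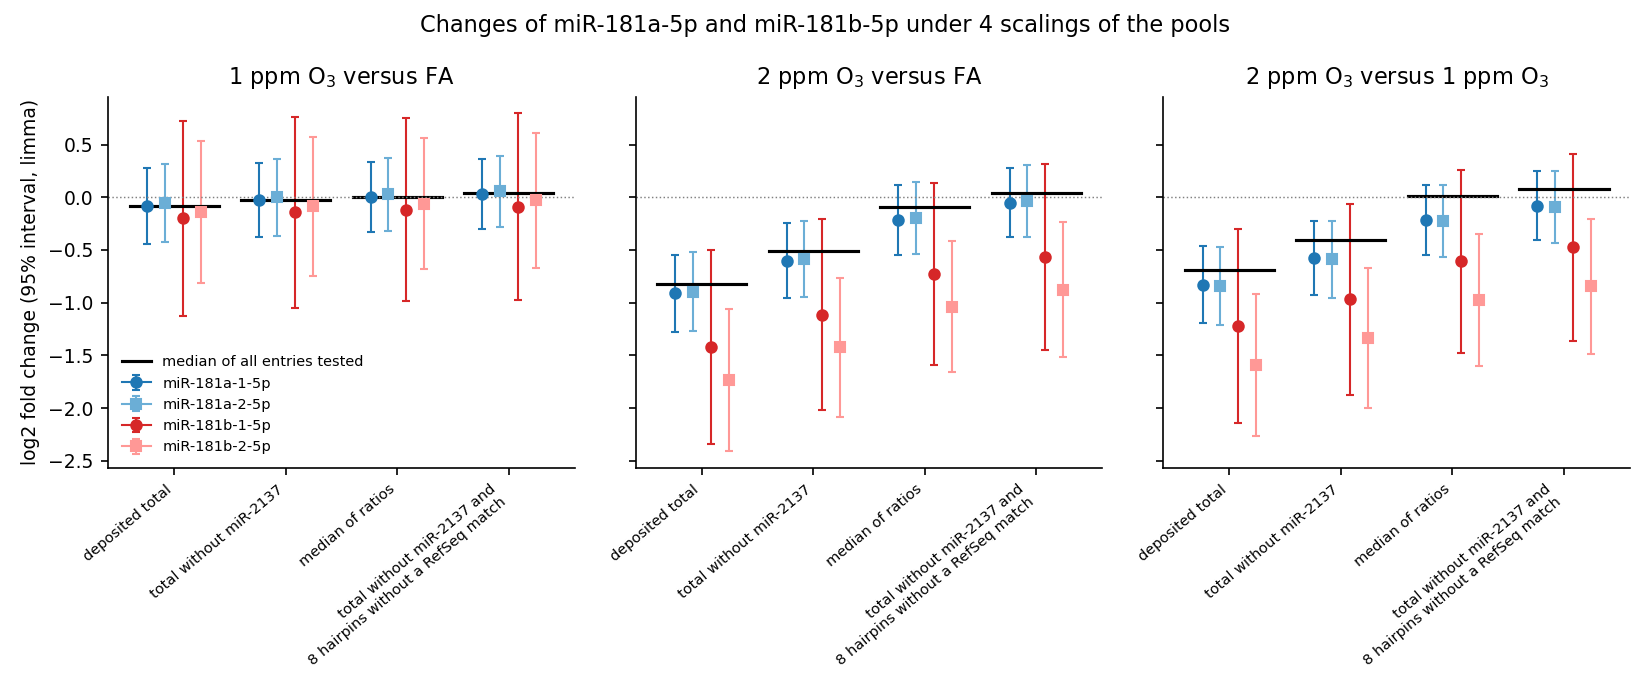
Log2 fold change with its 95% interval (limma) of both genomic copies of miR-181a-5p and miR-181b-5p in the 3 comparisons under 4 scalings of the pools, with the median of all entries tested as a black bar. In 2 ppm O3 versus FA the Mir181b-2 copy stays below 0 on every scale, from -1.73 to -0.88, while the Mir181a-1 copy moves from -0.91 to -0.051 with the median.

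Values within the family do not depend on the scaling of a pool. The ratio of miR-181a-5p to miR-181b-5p was 5.91, 5.64 and 2.86 in the FA pools, 4.49, 6.17 and 4.19 in the 1 ppm O3 pools and 8.41, 7.44 and 6.42 in the 2 ppm O3 pools. All 2 ppm O3 pools were above all others, and the FA and 1 ppm O3 pools overlapped. The ratio averaged 7.42 ± 0.998 (SD, n = 3 pools) after 2 ppm O3 and 4.81 ± 1.69 after FA, with p = 0.1 in a two-sided exact permutation test, below which 3 pools against 3 cannot go. Over the 3 exposures in order, 23 of 27 pairs of pools had the higher ratio at the higher concentration (p = 0.0417 in a two-sided exact permutation test, and 0.0938 after Benjamini-Hochberg adjustment over 9 quantities of the family). The lowest ratio was that of FA pool 3, and without it 17 of 21 pairs rose (exact permutation test, p = 0.114).

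The share of miR-181a in the family total was 85.4%, 83.0% and 73.4% in the FA pools, 79.3%, 82.7% and 78.1% in the 1 ppm O3 pools and 85.4%, 86.1% and 86.5% in the 2 ppm O3 pools. The 2 ppm O3 pools were above all others, the lowest of them only just above FA pool 1. The share of miR-181b averaged 16.8% ± 5.80 (SD, n = 3 pools) after FA, 16.9% ± 2.71 after 1 ppm O3 and 11.5% ± 1.96 after 2 ppm O3, and the FA and 2 ppm O3 pools overlapped. miR-181c held between 0 and 5.05% of the family total in a pool and miR-181d between 0 and 3.25%. None of the trends of these shares passed (two-sided exact permutation tests, p = 0.123 for miR-181a, 0.189 for miR-181b, 0.314 for miR-181c and 0.0690 for miR-181d).

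Summed over its 27 entries the family stood at 5347, 4963 and 4848 RPMMM in the FA pools, at 5148, 3985 and 4845 RPMMM in the 1 ppm O3 pools and at 2433, 2032 and 2582 RPMMM in the 2 ppm O3 pools. The mean after 2 ppm O3 was 0.465 times that after FA, and 2 of 27 such pairs rose and 25 fell (p = 0.00952 in a two-sided exact permutation test, adjusted p = 0.0857 over the 9 quantities). On the scale without miR-2137 and the unmatched hairpins 6 of 27 pairs rose (p = 0.123, exact permutation test). On that scale the difference of 2 ppm O3 less FA was -799.8 RPMMM, against -2704 RPMMM on the deposited scale. Each had p = 0.1 (two-sided exact permutation test), the smallest that 3 pools against 3 can give. Against 1 ppm O3 the difference on that scale was -776 RPMMM (exact permutation test, p = 0.2). The differences thus shrank with the scale and kept their sign.

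The arms and the starts of miR-181a were compared in the same way. The 5p arm held 96.7%, 94.3% and 93.6% of all miR-181a in the FA pools, 98.5%, 96.3% and 98.6% in the 1 ppm O3 pools and 98.1%, 100% and 100% in the 2 ppm O3 pools. It was higher at the higher concentration in 24 of 27 pairs (two-sided exact permutation test, p = 0.0190, adjusted p = 0.0857). Starts shifted at the 5′ end held 4.31% ± 0.401 (SD, n = 3 pools) of miR-181a-5p after FA, 3.07% ± 1.54 after 1 ppm O3 and 1.31% ± 2.26 after 2 ppm O3, where it was 0 in 2 of 3 pools, and 4 of 27 pairs rose (exact permutation test, p = 0.0357, adjusted p = 0.0938). The 3p arm and the isomiRs are those with values near the minimum that the 2 ppm O3 pools list. With entries under 40 RPMMM counted as 0, 21.5 of 27 pairs rose for the 5p arm, a tied pair counting 0.5 (exact permutation test, p = 0.0762), and 5 of 27 for the shifted share of miR-181a-5p (p = 0.0357, exact permutation test). That cut is fixed, while the Mir181a-1 copy fell from a mean of 1880 RPMMM after FA to 998 RPMMM after 2 ppm O3. The isomiR with an offset of +1 averaged 63.7 RPMMM after FA. At an unchanged share such an entry could fall under the cut after 2 ppm O3 alone, so the cut cannot decide whether the shares changed.

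Starts of miR-181b-5p shifted at the 5′ end held 0, 0 and 2.54% of that miRNA in the FA pools, 0, 10.97% and 9.63% in the 1 ppm O3 pools and 0 in the 2 ppm O3 pools. They were present in a minority of the pools, and no trend passed (exact permutation test, p = 0.667). The entries behind them lay between 18.6 and 30.6 RPMMM, all under the lowest value listed in a 2 ppm O3 pool.

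**Figure D3:**
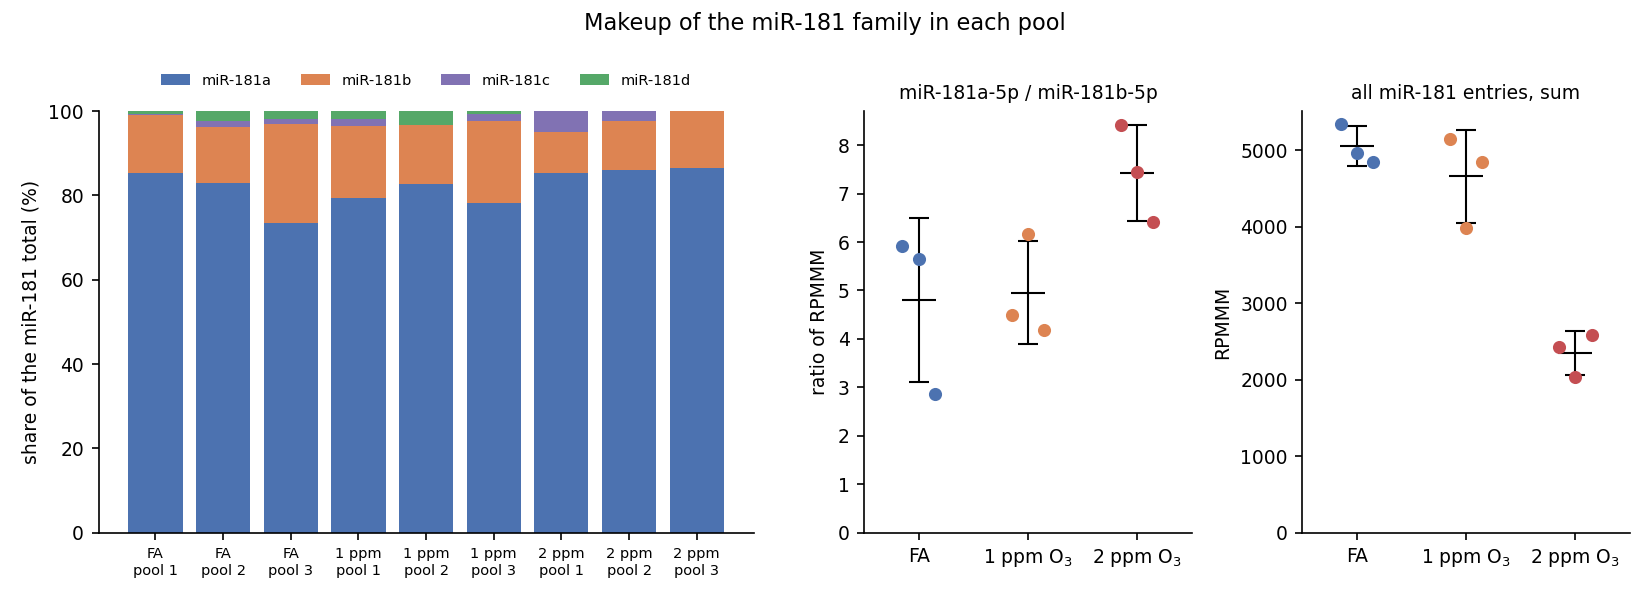
Left, share (%) of the summed miR-181 RPMMM held by each member in every pool. Middle and right, the ratio of miR-181a-5p to miR-181b-5p and the summed RPMMM in each pool, with the mean and SD of 3 pools. The ratio is 6.42 to 8.41 in the 2 ppm O3 pools and at most 6.17 elsewhere.

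The genomic copies of a miRNA have the same mature sequence, and only bases next to it can tell them apart. The stretches below are the hairpins around the 5p arm, with the mature sequence in capitals.
Mir181a-1: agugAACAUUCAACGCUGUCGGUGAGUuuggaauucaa
Mir181a-2: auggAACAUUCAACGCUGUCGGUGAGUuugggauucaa
Mir181b-1: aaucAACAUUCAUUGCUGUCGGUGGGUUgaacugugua
Mir181b-2: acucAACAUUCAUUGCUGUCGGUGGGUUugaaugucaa

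The miR-181a hairpins share 4 bases after the end of the mature sequence, whereas the miR-181b hairpins share 0 and differ in the base that follows it. For miR-181a-5p the Mir181a-1 copy was listed higher in 7 pools and equal in 2, and the gap was at most 1.64% of the sum of both. For miR-181b-5p the Mir181b-2 copy was higher in 7 pools, equal in 1 and lower in 1. In reads, it exceeded the Mir181b-1 copy by 36, 103 and 40 in the FA pools, by 54, 76 and 10 in the 1 ppm O3 pools and by 3, -2 and 0 in the 2 ppm O3 pools. The gap between the copies thus reached 27.5% of their sum, in 1 ppm O3 pool 2. The values of both copies summed to within 0.05 of a whole read in every pool, and in 7 of the 18 cases (9 pools and both miRNAs) each copy alone lay at about 0.5 of a read. How many reads match both copies was not measured, and the test of a copy is not a test of its locus.

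**Figure D4:**
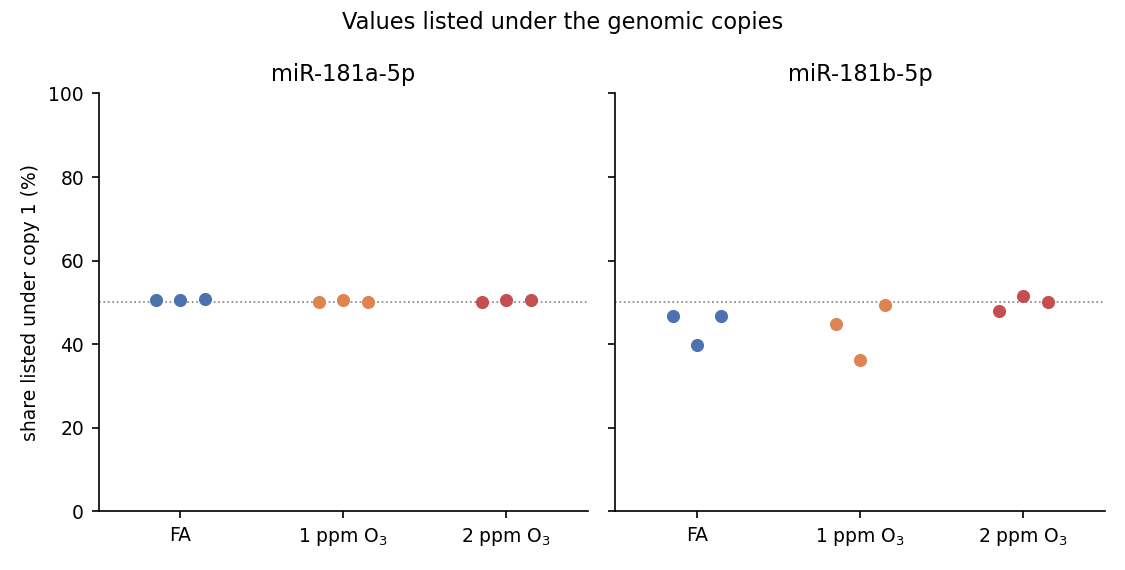
Share (%) of the summed RPMMM of both genomic copies that was listed under copy 1 (Mir181a-1 or Mir181b-1), in each pool after FA, 1 ppm O3 and 2 ppm O3, with a dotted line where the copies are equal. miR-181a-5p stays at the line in all pools, and miR-181b-5p is below it in 7 of 9 pools.

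Among 209 other mature miRNAs, those most like miR-181a-5p over the 9 pools, by Pearson's correlation of log2(RPMMM + 1), were let-7a-5p (0.967), miR-26b-5p (0.966), miR-30c-5p (0.964), miR-30e-3p (0.964) and let-7f-5p (0.963). For this search genomic copies of a miRNA were averaged, not summed as above. On that basis let-7a-5p averaged 17456 RPMMM after FA, 17380.5 RPMMM after 1 ppm O3 and 6991 RPMMM after 2 ppm O3. Most like miR-181d-5p were miR-351-5p (0.962), miR-125a-5p (0.956) and let-7d-3p (0.948). miR-181d-5p was at 0 in all 2 ppm O3 pools, and those 0s shape its correlations, also the one within the family below. All pools share the scaling to the miRNA total and fall into exposures, so such a likeness is a description of 9 values. Within the family the correlation was 0.890 between miR-181a-5p and miR-181b-5p, 0.854 between miR-181a-5p and miR-181d-5p, and 0.338 between miR-181a-5p and miR-181a-1-3p. That 3p entry was listed at 0 in FA pool 1 and in 2 ppm O3 pools 2 and 3, and these 0s shape its correlation too.

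miR-23a, miR-27a and miR-24-2, encoded on the same chromosome as Mir181c and Mir181d, gave 12 tested entries. In 1 ppm O3 versus FA 0 of them were DE by limma, against 13.2% of all entries, and their median log2 fold change was 0.21. In 2 ppm O3 versus FA miR-24-2-3p was DE and higher, 1 of 12 against 14.3% of all entries, and the median was 0.091. Without miR-2137, with median-of-ratios scaling and without miR-2137 and the unmatched hairpins, the medians were 0.40, 0.79 and 0.95. The median of all entries also rose on these scales, to -0.51, -0.091 and 0.045. In 2 ppm versus 1 ppm O3 miR-24-2-3p and an isomiR of it were DE and higher, against 11.3% of all entries. The median of the 12 entries was -0.17 and became 0.084, 0.44 and 0.58 on these scales. That of all entries went from -0.69 to -0.40, 0.016 and 0.074. miR-24-2-3p has a second genomic copy, so its reads are not those of this locus alone. miR-24-2-5p had a log2 fold change of -0.51 in 2 ppm O3 versus FA (limma, adjusted p = 0.0806), and miR-23a-3p of 0.091 (adjusted p = 0.449). In 2 ppm versus 1 ppm O3, miR-24-2-5p was at -0.88 (limma, adjusted p = 0.0123) and miR-27a-3p at -0.31 (adjusted p = 0.0495) on the deposited scale. Both passed as lower, short of 2-fold, while miR-23a-3p was at -0.19 and did not pass (limma, adjusted p = 0.164). Their difference from miR-181d-5p was not tested.

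miRNAs that mark cell types able to shed vesicles into BALF moved as well, and their part in the values of the family was not tested. Of the leukocyte hairpins, miR-142, miR-223, miR-155 and miR-342 were above 0 in all pools, and miR-150, a lymphocyte miRNA, was at 0 in 8 of 9. Their 31 entries summed to 2833 to 3925 RPMMM in the FA pools, 2951 to 3692 RPMMM in the 1 ppm O3 pools and 1817 to 2189.8 RPMMM in the 2 ppm O3 pools. Of 8 entries tested 0 were DE in 1 ppm O3 versus FA, 3 were lower in 2 ppm O3 versus FA and 1 was lower in 2 ppm versus 1 ppm O3, with median log2 fold changes of -0.27, -0.62 and -0.66. Of all entries 13.2% were DE in 1 ppm O3 versus FA, and 29.3% were DE and lower in 2 ppm O3 versus FA and 22.3% in 2 ppm versus 1 ppm O3. In 2 ppm O3 versus FA the median of the leukocyte entries turned to 0.23 when miR-2137 and the unmatched hairpins were left out of the total. That of all entries was 0.045 on that scale.

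The epithelial list, miR-141, miR-429 and the miR-200 hairpins, was above 0 in all pools. Its 41 entries summed to between 64849 and 69404 RPMMM in the FA pools, between 51325 and 56129 RPMMM in the 1 ppm O3 pools and between 26265 and 30242.5 RPMMM in the 2 ppm O3 pools. Of 19 entries tested, 2 were DE and lower in 1 ppm O3 versus FA, 10 in 2 ppm O3 versus FA and 4 in 2 ppm versus 1 ppm O3, with 0 higher and medians of -0.55, -1.30 and -0.94. The shares of all entries DE and lower were 2.82%, 29.3% and 22.3%. Without miR-2137 and the unmatched hairpins in the total, the median in 2 ppm O3 versus FA was -0.41, against 0.045 for all entries.

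The endothelial miR-126 summed to between 112 and 314 RPMMM in the FA pools, between 445 and 938 RPMMM in the 1 ppm O3 pools and between 764 and 912 RPMMM in the 2 ppm O3 pools. Of its 3 entries tested 1 rose in 1 ppm O3 versus FA, 3 rose in 2 ppm O3 versus FA and 0 were DE between the O3 exposures, with medians of 1.53, 2.32 and 0.77. Without miR-2137 and the unmatched hairpins in the total, the median in 2 ppm O3 versus FA was 3.18, against 0.045 for all entries. Of all entries 10.4% were DE and higher in 1 ppm O3 versus FA, and 14.3% in 2 ppm O3 versus FA. Erythroid miRNAs (miR-451, miR-486 and miR-144) summed to between 884 and 1822 RPMMM in the FA pools, between 149.8 and 343 RPMMM in the 1 ppm O3 pools and between 158 and 948 RPMMM in the 2 ppm O3 pools, and miR-144 was at 0 in 7 of 9 pools. Of 2 entries tested, miR-451 was DE and lower in 1 ppm O3 versus FA, as were 2.82% of all entries. In the other comparisons 0 were DE, and the medians were -2.23, -1.48 and 0.74 in the order used above.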

How the data were processed

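Small RNA from BALF EVs was sequenced as single-end reads in 9 pools (n = 3 pools per exposure). After adapter trimming and alignment to mm9, the authors counted miRNAs and isomiRs with miRquant, and deposited RPM of the reads mapped to miRNAs (RPMMM), 1 column per pool. Depth was read from the steps between low values, of which 66.6% to 79.5% lay on whole reads and 77.8% to 91.9% on whole reads or on 0.5 of a read (within 0.012 RPMMM), too few for a count test. Where a step put the lowest value well above 10 reads, it was taken as 0.5 of a read and doubled.

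Family entries were found by hairpin name. Entries above a mean of 50 RPMMM, 461 in number, were fitted as log2(RPMMM + 1) with limma 3.58.1 (R 4.3.3). The fit held a mean per exposure over all 9 pools and let the variance follow the mean, and p was adjusted (Benjamini-Hochberg) over all entries tested. DE means an adjusted p below 0.05 and a change of at least 2-fold, the thresholds of the study, whose methods name no test for these data. Pool values were compared by two-sided exact permutation tests, for trends over all arrangements of the pools (smallest p 0.00119). On simulated data for 2 ppm O3 versus FA with 461 entries, of which 200 were changed 4-fold, 138 were called in the right direction, with 4 false calls and 0 calls when none was changed. The simulation had normal noise, and neither a lowest listed value, a lower depth after 2 ppm O3 nor a fixed total. Its false calls are therefore no measure of those in these data. Family entries above a mean of 50 RPMMM are named with tests and the rest by level. The members, lists and named miRNAs were chosen with earlier results of these data known. Alternatives covered the pseudocount, minimum level, scaling, genomic copies, model and the loss of each pool. The floor of 40 RPMMM was added after the values were seen. Of 299 hairpins 291 matched RefSeq, from which sequences were taken (GRCm38.p6). Positions are those of the mm9 annotation. Python 3.11.15, pandas 2.3.3 and matplotlib 3.10.9 were used.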

Additional observations from a re-analysis of the deposited data

How the results depend on the processing

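No paired analysis was possible because the labels give the pools no numbers shared between exposures. The DE count in 1 ppm O3 versus FA was 0 under every alternative. The DE count in 2 ppm O3 versus FA, 3 as reported, was 1 with median-of-ratios scaling and 1 when miR-2137 and the unmatched hairpins were left out of the total, and 2 to 4 with a pool left out. The entry called was the Mir181b-2 copy with median-of-ratios scaling, where miR-181d-5p was not tested. On the other scale it was miR-181d-5p, whose p-values are no support for a difference. In 2 ppm versus 1 ppm O3 the DE count was 0 and 1 on these scales, the 1 again being miR-181d-5p, and 2 to 3 with a pool left out. The difference in summed family level, 2 ppm O3 less FA, was -2704 RPMMM as reported, -2149 RPMMM without miR-2137, -1040.3 RPMMM with median-of-ratios scaling (5 of 27 pairs rising, exact permutation test, p = 0.0738) and -799.8 RPMMM without miR-2137 and the unmatched hairpins (6 of 27 pairs rising). Against 1 ppm O3 it was -937 and -776 RPMMM on the latter scales. With copies averaged the difference in the share of miR-181d was -3.09 percentage points against FA and -3.74 against 1 ppm O3, since miR-181a and miR-181b have 2 copies. With entries under 40 RPMMM counted as 0, the 5p share of miR-181a rose in 21.5 pairs, and the differences of the shifted share of miR-181b-5p became 0.

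With a pool left out, the pairs rising (of 21) were 2 to 5 for the share of miR-181d (p = 0.0232 to 0.161, exact permutation test), below 0.05 without FA pool 1 or 1 ppm O3 pool 2. They were 18 to 20 for the 5p share of miR-181a (p up to 0.0607, lost without FA pool 2 or 3 or 2 ppm O3 pool 2 or 3), 1 to 4 for shifted miR-181a-5p (p up to 0.114, kept without FA pool 1 or 2 ppm O3 pool 1) and 17 to 19 for the ratio of miR-181a-5p to miR-181b-5p (p up to 0.114, kept without FA pool 1 or 2 or 1 ppm O3 pool 1 or 3).

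Signs changed in 1 ppm O3 versus FA alone, where no entry passed. miR-181a-1-3p went to -0.51 with a pseudocount of 10 RPMMM, -1.20 with the floor of 40 RPMMM and -2.10 to 1.63 with a pool left out. miR-181a-1-5p went to 0.031 without miR-2137 and the unmatched hairpins, 0.0017 with median-of-ratios scaling and -0.19 to 0.018 with a pool left out. miR-181a-2-5p went to 0.057 and 0.029 on these scales, 0.0011 without miR-2137 and -0.16 to 0.048 with a pool left out. With a pool left out miR-181b-1-5p ranged from -0.42 to 0.19, miR-181b-2-5p from -0.28 to 0.060 and miR-181d-5p from -0.95 to 0.61, and miR-181d-5p was 0.063 with the floor. The causes were not tested. The 2 ppm O3 pools had the fewest reads, which limits what can be said of entries under 40 RPMMM, miR-181c-5p, the 3p arms and the isomiRs among them.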
